A study of Rattus with 6 samples.

Results

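The genes described here are the rat major histocompatibility complex (MHC) genes and the genes that load and regulate MHC molecules. They were taken by name from a table of read counts: every gene whose symbol starts with RT1-, the name of the rat MHC, and 11 others (Tap1, Tap2, Tapbp, B2m, Psmb8, Psmb9, Psmb10, Nlrc5, Ciita, Cd74 and Erap1). This gave 42 of the 30211 genes in the table, of which 21 were RT1 class I genes and 10 RT1 class II genes. The libraries came from rat bone marrow mesenchymal stem cells of wild-type genotype, the stromal cells of bone marrow, exposed for 4 days to 100 uM of the synthetic glucocorticoid dexamethasone (3 libraries), or cultured without it (3 control libraries). The sources used here give neither the rats' strain nor any vehicle for the controls. The groups were read from the titles, because the treatment tag says DEX for every sample.

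MHC class I molecules display peptides from inside the cell to cytotoxic T cells and natural killer cells. The proteasome cuts these peptides, the TAP transporter moves them into the endoplasmic reticulum, and they are loaded there onto a heavy chain held by beta-2-microglobulin. MHC class II molecules present material taken up from outside, are guarded by the invariant chain until they reach endosomes, and are made mainly by professional antigen-presenting cells. Interferon gamma raises both pathways, through NLRC5 for class I and CIITA for class II.

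Library totals ranged from 34835072 to 41676315 counts. Fkbp5, a glucocorticoid receptor target used to check the labels, averaged 1370.1 ± 72.2 CPM (depth-scaled counts, with TMM scaling) with dexamethasone and 69.8 ± 1.06 CPM in control (SD, n = 3 each). Marrow stroma markers were abundant in sum, at 2475 to 2502 CPM with dexamethasone and 3036 to 3102 CPM in control. Single markers differed, with means of 965 and 598 CPM for Pdgfra, 137 and 616 CPM for Pdgfrb, and 0.913 and 0.262 CPM for Lepr. Of the 10 tested, 4 were called higher and 5 lower in the test described below, against 32.3% and 31.7% of all tested genes. Ptprc, the pan-leukocyte marker CD45, did not exceed 1.27 CPM in any library. The median log2 fold change of all 14111 tested genes was 0.00.

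Of the 42 genes, 34 passed the filter on low counts and were tested. Among these, 16 rose with dexamethasone, 7 fell and 11 did not pass an adjusted p of 0.05 (edgeR's quasi-likelihood test, Benjamini-Hochberg over all tested genes). The 23 called genes made up 67.6% of those tested, against 64.0% of all tested genes, so the share that changed was near the background. Rises made up 47.1% against 32.3% of all tested genes, and falls 20.6% against 31.7%. The median log2 fold change of the 34 genes was 0.22. RT1-DMa and Cd74 passed the filter through 1 group only and so had to differ. Without them, 15 of 32 genes rose and 6 fell (65.6% called), with the same median of 0.22. Dexamethasone and control libraries were fully separated for 23 of the 34 genes, or 67.6%, against 66.9% of all tested genes. Replicates differed little (common biological coefficient of variation 3.66%), and small changes passed the test. Tested against a fold change of 1.5, 8 genes rose and 2 fell (29.4%, against 20% of all tested genes). With the coefficient of variation set to 0.2, 10 rose and 3 fell (38.2%, against 26.2%). Both of these counts include RT1-DMa among the rises and Cd74 among the falls, which had to differ. Shares without them were not computed for either setting, so no excess over all tested genes is read from these shares.

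**Figure D1:**
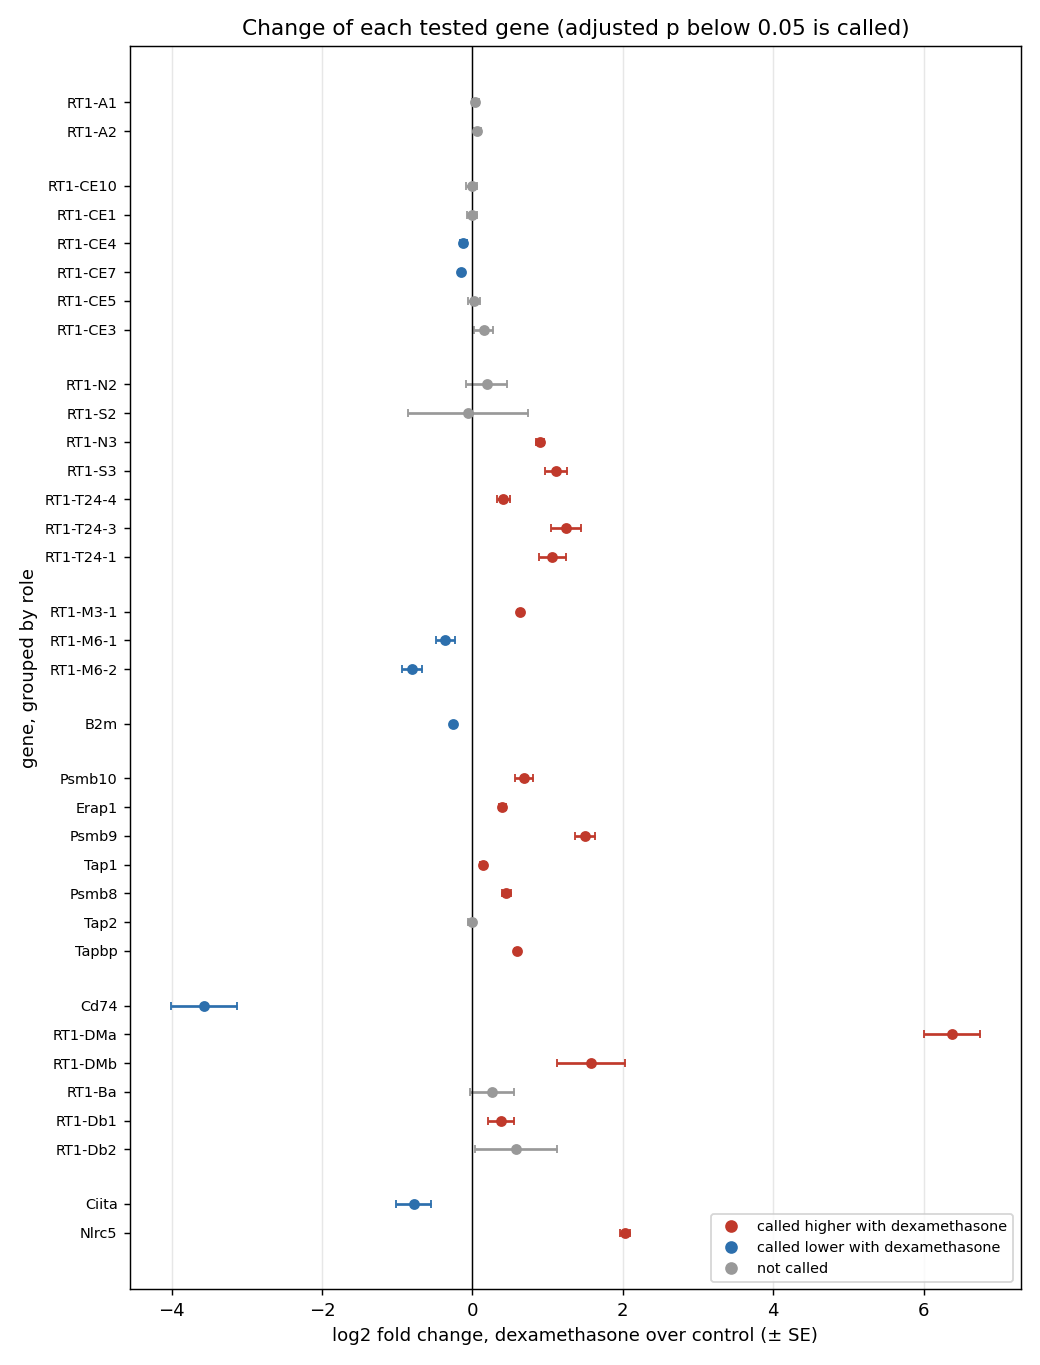
Log2 fold change of each tested gene, dexamethasone over control, with its standard error (horizontal bars), grouped by role. Red points are called higher with dexamethasone (16 genes), blue points called lower (7) and grey points not called (11). The RT1-A and RT1-CE genes lie near 0, while RT1-DMa (6.38) and Cd74 (-3.57) lie at the ends. The RT1-DMa value rests on 2 control counts, and both genes passed the filter through 1 group only.

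The most abundant class I heavy chains barely moved. RT1-A1 (chromosome 20, 5351605 to 5421098 as the table gives it), a heavy chain of the classical RT1-A group, had 332, 309 and 330.4 CPM with dexamethasone, against 311, 306 and 328 CPM in control. RT1-A2, the other RT1-A gene, had 93.3, 84.6 and 91.8 CPM with dexamethasone, against 82.2, 89.0 and 87.2 CPM in control. The groups overlapped for both genes. Their log2 fold changes were 0.04 ± 0.045 and 0.06 ± 0.056 (SE), with adjusted p of 0.271 and 0.157, and limma-voom gave 95% intervals of -0.02 to 0.10 and -0.02 to 0.14. Both were called higher when scaled by library size alone (adjusted p = 0.0314 and 0.0229) and without dexamethasone replicate 2 (0.047 and 0.0227), with log2 fold changes of at most 0.11.

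The 6 RT1-CE genes, class I genes of a second RT1 region, were also close to their control levels. RT1-CE7 fell slightly, with 74.4, 74.5 and 72.3 CPM with dexamethasone and 81.0, 80.4 and 83.8 CPM in control (log2 -0.15 ± 0.023, adjusted p = 5.2e-04). RT1-CE4 averaged 88.1 ± 1.86 CPM with dexamethasone and 96.0 ± 4.78 CPM in control (SD, n = 3 each; log2 -0.12, adjusted p = 0.00338), a call lost without control replicate 3 (adjusted p = 0.0522). Both calls were lost against a fold of 1.5 (each at adjusted p = 1) and at a preset coefficient of variation of 0.2 (0.743 and 0.792). RT1-CE1, RT1-CE3, RT1-CE5 and RT1-CE10 did not pass, with adjusted p from 0.342 to 0.964. Their mean levels were 18.0, 4.60, 46.7 and 12.4 CPM with dexamethasone and 18.1, 4.16, 46.0 and 12.4 CPM in control.

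Exons of several of these genes are listed on top of each other. RT1-A1 and RT1-A2 share 546 bases, and RT1-CE4 shares 319 bases with RT1-CE1, 343 with RT1-CE3 and 504 with RT1-CE5. RT1-CE1 shares 1057 of its 2066 bases with AABR07044404.1, whose level of 17.7, 16.0 and 17.7 CPM with dexamethasone and 17.6, 18.9 and 17 CPM in control was close to its own in every library. How reads in shared exons, or reads matching several of these near-identical genes, were counted is unstated in the labels and the table, so the level of any 1 of them is uncertain. Summed over the 21 class I genes, the level was 775, 739 and 762 CPM with dexamethasone and 718, 725 and 757 CPM in control. The summed RT1 class I level did not pass (log2 0.05 ± 0.031 SE, adjusted p = 0.107). It was called higher with library size alone (log2 0.0863, adjusted p = 0.00384), without dexamethasone replicate 2 (0.0716, 0.0388) and without control replicate 3 (0.0707, 0.0194). It was also called higher (0.0968, 0.002) when 4 genes were left out so that no exon base was shared among class I genes. This alternative was chosen after the overlaps were seen. Of the 4, RT1-CE4 and RT1-M6-2 were themselves called lower (10414 and 890 counts with dexamethasone, 11344 and 1556 in control). RT1-A2 and RT1-CE5 were not called, and leaving out falling genes raises the sum's fold change.

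Several non-classical class I genes of another MHC stretch rose. Of the 7 RT1-N, RT1-S and RT1-T24 genes, which encode non-classical class I heavy chains and lie together on chromosome 20 (3146856 to 3282523), 5 rose and 0 fell, and 2 missed the threshold (71.4% higher, against 32.3% of all tested genes). Their median log2 fold change was 0.90. How reads matching more than 1 of these genes were counted is not given, so the rises may not be independent of each other. RT1-N3 had 15.0, 14.4 and 15.0 CPM with dexamethasone, against 7.31, 8.16 and 8.22 CPM in control (log2 0.90 ± 0.058, adjusted p = 9.9e-13). RT1-S3 had 5.90, 6.44 and 4.78 CPM with dexamethasone, against 2.90, 2.38 and 2.65 CPM in control (log2 1.11 ± 0.15, adjusted p = 4.9e-09). In both genes all dexamethasone libraries lay above all control libraries.

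The 3 RT1-T24 genes moved the same way. RT1-T24-1 had 5.73, 5.87 and 4.43 CPM with dexamethasone and 2.67, 2.84 and 2.15 CPM in control, a log2 fold change of 1.06 ± 0.18 (SE). RT1-T24-3 had 2.13, 2.41 and 1.87 CPM with dexamethasone and 0.933, 1.06 and 0.70 CPM in control, a log2 fold change of 1.24 ± 0.20. RT1-T24-4 had 5.90, 5.87 and 5.05 CPM with dexamethasone and 4.04, 4.10 and 4.52 CPM in control (log2 0.41 ± 0.088, adjusted p = 0.00407). That gene did not pass against a fold of 1.5 (adjusted p = 1) or with the coefficient of variation set to 0.2 (0.261). RT1-N2 and RT1-S2 did not exceed 1.01 CPM in any library, with overlapping groups and adjusted p of 0.64 and 0.93. As a share of all class I counts, the 7 genes took 4.26% to 4.84% with dexamethasone and 2.50% to 2.70% in control. RT1-T24-1 shares 52 bases with AABR07044364.1 and RT1-N3 shares 537 bases of the opposite strand with AABR07044362.4, which both rose too (log2 1.22 and 0.61), and how such reads were divided was not tested.

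The RT1-M genes went in both directions. RT1-M3-1, the rat counterpart of mouse H2-M3, which presents peptides with a formylated start, had 55.0, 52.5 and 54.7 CPM with dexamethasone, against 35.9, 34.1 and 34.6 CPM in control. The groups stood well apart (log2 0.63 ± 0.030, adjusted p = 3.6e-16), although a fold of 1.5 was not exceeded beyond error (adjusted p = 0.224). RT1-M6-2 fell to 6.63, 7.83 and 8.23 CPM with dexamethasone, against 14.2, 13.9 and 11.5 CPM in control (log2 -0.80 ± 0.13, adjusted p = 8.0e-10). RT1-M6-1 averaged 5.02 ± 0.643 CPM with dexamethasone and 6.43 ± 0.583 CPM in control (SD, n = 3 each; log2 -0.36, adjusted p = 0.00754). That call was lost without dexamethasone replicate 1 (adjusted p = 0.0741), without control replicate 3 (0.059), against a fold of 1.5 (1) and at a coefficient of variation of 0.2 (0.338). The RT1-M6 genes share 146 bases with each other and 305 and 246 bases with Znrd1as1 on the opposite strand, which also fell (log2 -0.38). RT1-M2, RT1-M4 and RT1-M5 had at most 2 counts in any library and were not tested.

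B2m, the light chain of every class I molecule (chromosome 3), went down while the heavy chain total did not pass. It had 182, 181 and 181 CPM with dexamethasone, against 216, 222 and 213 CPM in control, with no overlap (log2 -0.26 ± 0.017, adjusted p = 1.9e-10). The fall was small and did not pass against a fold of 1.5 (adjusted p = 1) or with the coefficient of variation set to 0.2 (0.503). Per kilobase of exon, B2m stood at 99.1 CPM with dexamethasone and 119 CPM in control. RT1-A1 alone stood at 119 and 116 CPM per kilobase, and other heavy chains add to it (RT1-A2, 53.8 and 51.5). Light chain and total heavy chain were therefore not compared per kilobase.

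**Figure D2:**
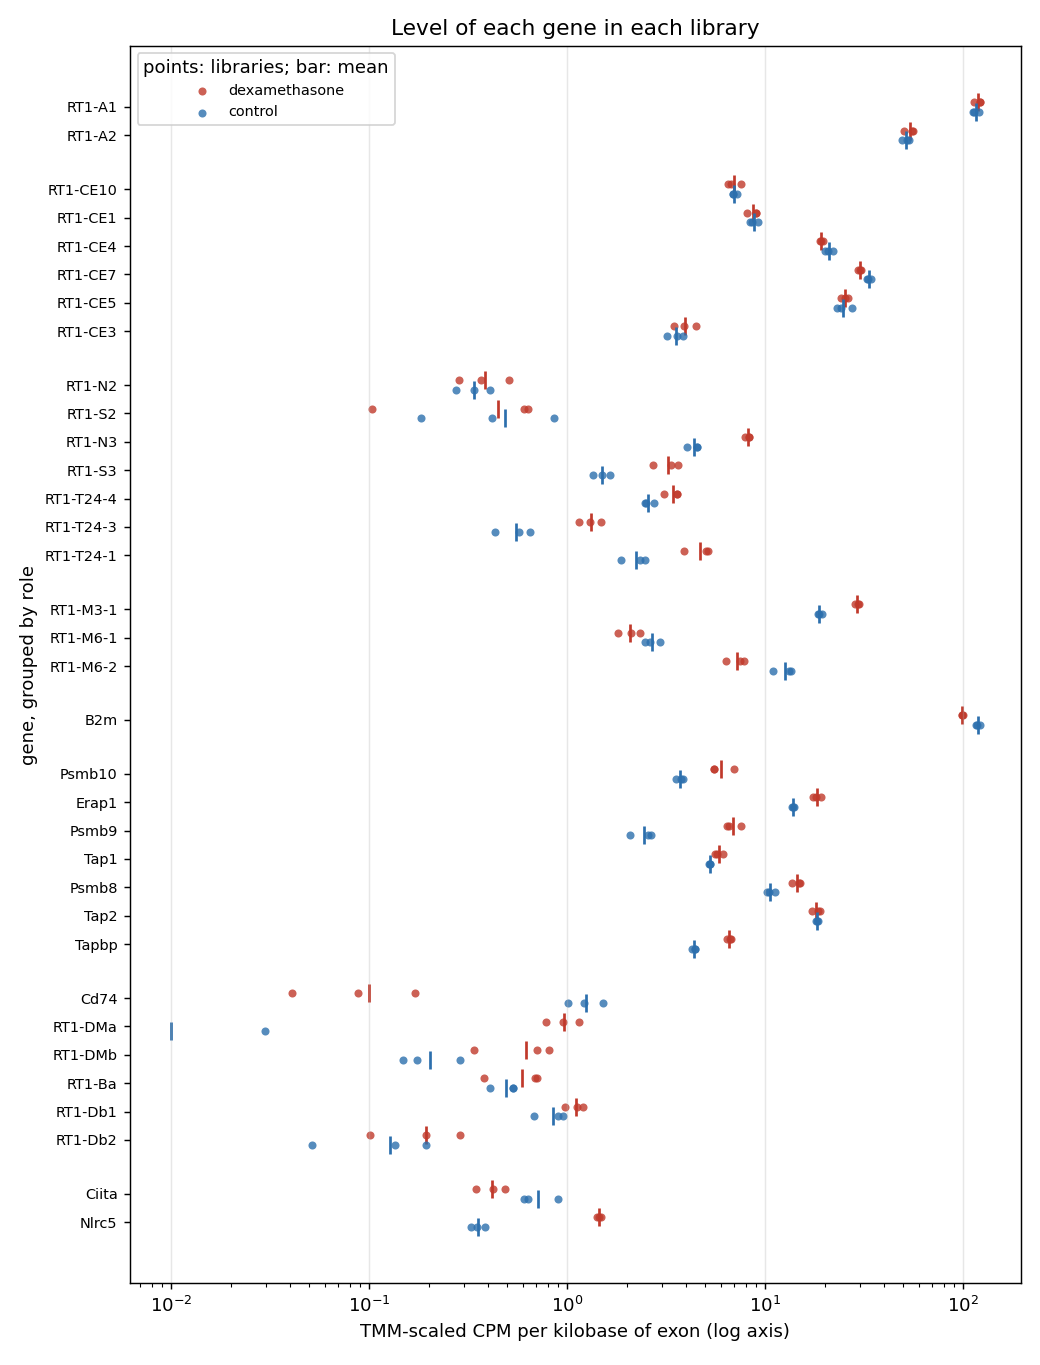
Level of each tested gene in each library, in TMM-scaled CPM per kilobase of exon on a log axis, with dexamethasone (red) above control (blue) for each gene. Points are libraries and vertical bars are group means. Control replicates 2 and 3 had 0 counts of RT1-DMa and cannot be drawn on this axis. RT1-A1 and B2m have group means of 99.1 to 119, and the class II genes and Cd74 have group means of at most 1.25.

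Of the 7 genes that supply and load class I peptides, 6 rose, 0 fell and 1 did not pass, or 85.7% higher against 32.3% of all tested genes. Only 1 of the 7 passed against a fold of 1.5 (14.3%, against 20% of all tested genes). Psmb9, a catalytic subunit of the immunoproteasome, which replaces the standard proteasome subunits in interferon-treated and immune cells, had the largest change of the 7. It had 10, 9.81 and 11.5 CPM with dexamethasone, against 3.89, 4.05 and 3.17 CPM in control (log2 1.5 ± 0.13, adjusted p = 1.2e-15). Psmb8, the second such subunit, had 30.7, 31.1 and 28.4 CPM with dexamethasone and 23.2, 21.7 and 21.1 CPM in control (log2 0.45 ± 0.057, adjusted p = 9.6e-09). Psmb10, the third, had 6.94, 5.47 and 5.49 CPM with dexamethasone and 3.76, 3.55 and 3.82 CPM in control (log2 0.69 ± 0.12, adjusted p = 9.1e-06). The groups did not overlap for any of the 3 subunits, but against a fold of 1.5 Psmb9 passed (adjusted p = 3.6e-10) while Psmb8 and Psmb10 did not (1 and 0.322), and Psmb8 was also lost at a coefficient of variation of 0.2 (0.172).

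Each immunoproteasome subunit was set against the standard subunit it replaces, as the ratio of counts per kilobase within a library. Psmb9 to Psmb6 was 0.287, 0.287 and 0.332 with dexamethasone, against 0.119, 0.122 and 0.0904 in control, a 2.75-fold higher ratio. Psmb8 to Psmb5 averaged 0.282 with dexamethasone and 0.202 in control (geometric means), 1.40-fold higher. Psmb10 to Psmb7 averaged 0.081 with dexamethasone and 0.0596 in control, 1.36-fold higher. All 3 ratios were higher in 3 of 3 dexamethasone libraries than in any control, with an exact two-sided permutation p of 0.1 for each, which is the smallest that 3 against 3 libraries can give, so no adjustment over the 3 could lower it. The standard subunits stayed the more abundant per kilobase in every library.

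**Figure D3:**
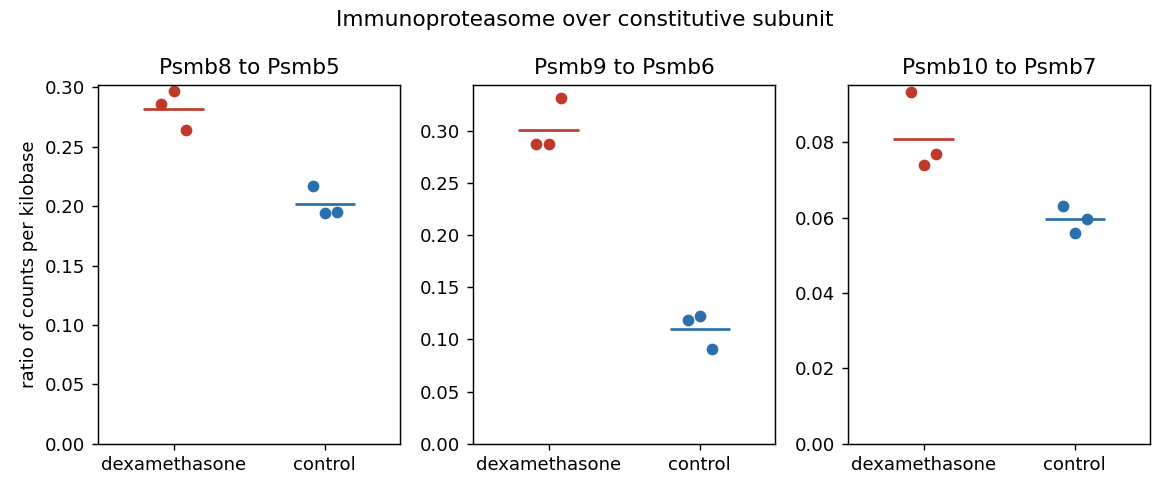
Ratio of counts per kilobase of exon of an immunoproteasome subunit to the standard subunit it replaces, in each library (points), with the geometric mean of each group (line) and dexamethasone on the left. All 3 dexamethasone points lie above all 3 control points in each panel, and the groups are furthest apart for Psmb9 to Psmb6 (0.301 and 0.110).

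The TAP transporter hardly changed. Tap2 averaged 44.1 ± 2.22 CPM with dexamethasone and 44.4 ± 0.702 CPM in control (SD, n = 3 each), with adjusted p = 0.918 and a limma-voom 95% interval of -0.10 to 0.09 for log2. Tap1 had 23.2, 25.4 and 23.7 CPM with dexamethasone and 21.6, 21.9 and 21.9 CPM in control (log2 0.14 ± 0.039, adjusted p = 0.0407). This call was borderline: it was lost with DESeq2 (adjusted p = 0.0684) and without any 1 of 5 libraries (0.0502 to 0.166), and of the fits without 1 library it held only in that without dexamethasone replicate 1. Tapbp, which encodes tapasin, the bridge between TAP and empty class I molecules, rose to 13.6, 13.2 and 13.8 CPM with dexamethasone, against 9.10, 8.79 and 9.10 CPM in control (log2 0.59 ± 0.025, adjusted p = 4.3e-08). It shares 135 bases of the opposite strand with AC128962.1, a low gene that also rose (1.21 CPM with dexamethasone and 0.609 CPM in control, log2 0.98). Erap1, the aminopeptidase that trims peptides in the endoplasmic reticulum, averaged 92.1 ± 4.53 CPM with dexamethasone and 69.9 ± 0.886 CPM in control (SD, n = 3 each; log2 0.40, adjusted p = 1.8e-12). Neither Tapbp nor Erap1 passed against a fold of 1.5 (adjusted p = 0.84 and 1) or with the coefficient of variation set to 0.2 (0.0584 and 0.241).

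The 2 transactivators moved in opposite directions. Nlrc5, the activator of class I transcription (chromosome 19, 10905542 to 10976396), had 8.29, 8.48 and 8.10 CPM with dexamethasone, against 2.02, 2.20 and 1.87 CPM in control. That is 4.07-fold higher, with tight and separate groups (log2 2.03 ± 0.069, adjusted p = 4.0e-18; 3.8e-14 against a fold of 1.5). Ciita, the activator of class II transcription (chromosome 10, 5213350 to 5260608), had 1.92, 2.69 and 2.32 CPM with dexamethasone, against 3.34, 3.50 and 4.97 CPM in control (log2 -0.78 ± 0.23, adjusted p = 1.1e-04). The groups did not overlap, and the call held at a coefficient of variation of 0.2 (adjusted p = 0.0143) but not against a fold of 1.5 (0.194).

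Class II genes and Cd74 were low throughout, with group means of at most 1.25 CPM per kilobase. Of the 5 tested RT1 class II genes, 3 were called higher, 0 lower and 2 missed the threshold (60% higher, against 32.3% of all tested genes). The 3 include RT1-DMa, which had to differ. RT1-DMa, which encodes a chain of the DM molecule that exchanges peptides on class II, had 84, 48 and 67 counts with dexamethasone, against 2, 0 and 0 counts in control (chromosome 20, 3935529 to 3938915). It passed the filter only through the dexamethasone libraries. The ratio of summed counts was 99.5 (199 over 2; exact 95% binomial interval on read pairs 17.5 to 3988, counting error only). Since a gene that enters this way had to differ, its test gives no support, and the counts are a description. RT1-DMb, the partner chain, had 0.592, 1.42 and 1.23 CPM with dexamethasone, against 0.259, 0.304 and 0.50 CPM in control, which is 10 to 50 counts a library (log2 1.58 ± 0.45, adjusted p = 2.1e-04).

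Among the classical class II chains, RT1-Db1, a beta chain of the RT1-D molecule, was the most abundant. It had 3.60, 3.86 and 3.13 CPM with dexamethasone and 2.88, 2.18 and 3.05 CPM in control (log2 0.38 ± 0.17, adjusted p = 0.0365). That call was lost with DESeq2 (adjusted p = 0.0681), without dexamethasone replicate 1 (0.0764) or 2 (0.123), without control replicate 2 (0.219), against a fold of 1.5 (1) and with the coefficient of variation set to 0.2 (0.322). RT1-Ba, an alpha chain of the RT1-B molecule, and RT1-Db2, another beta chain of the RT1-D group, did not pass (adjusted p = 0.506 and 0.362), at 0.807 and 0.286 CPM with dexamethasone and 0.669 and 0.187 CPM in control. Their groups overlapped, and limma-voom gave wide 95% intervals for log2 (-0.45 to 0.86 and -0.46 to 1.68). Changes within these ranges could go undetected at this depth. RT1-Bb, the beta chain that pairs with RT1-Ba, had 2 counts in all with dexamethasone and 15 in control, and RT1-Da, the alpha chain of RT1-D, had 8 and 18. Neither passed the filter. RT1-DOb had at most 2 counts in any library, and RT1-Ha and RT1-DOa had 0 counts in all 6, so that levels up to 0.17 CPM would go unseen in the shallowest library. Summed over the 10 RT1 class II genes, the level was 7.18, 8.03 and 7.19 CPM with dexamethasone and 4.49, 3.37 and 4.82 CPM in control (log2 0.82 ± 0.16, adjusted p = 1.6e-07). This sum includes RT1-DMa, which had to differ, so the test of the sum gives no support for a change across the class II genes. The DM chains, mostly RT1-DMa, supplied 280 of the 379 extra counts. Without them, in an alternative chosen after their counts were seen, the other 8 summed to 554 counts with dexamethasone and 455 in control, and the difference did not pass (log2 0.29, adjusted p = 0.0691). RT1-Db1 held 43.5% to 50.2% of the counts of all 10 genes with dexamethasone and 63.2% to 64.7% in control.

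Cd74, the invariant chain that escorts class II molecules (chromosome 18), was low with dexamethasone. It had 0.237, 0.0567 and 0.123 CPM with dexamethasone, against 1.40, 1.70 and 2.12 CPM in control. It had 17 counts in all with dexamethasone and 206 in control. It passed the filter only through the control libraries, so its test gives no support either, and these values are a description. Of 17 markers of antigen-presenting and blood cells, 8 were tested. None of these was called higher and 4 fell, against 32.3% higher and 31.7% lower over all tested genes. Ptprc, Cd14, Csf1r and Spi1 did not pass (adjusted p = 0.449, 0.544, 0.0682 and 0.543). The remaining 9 were too low to test, with Xcr1, Cd79a, Cd79b and Cd3d at 0 in every library. The summed level of the 17 markers was 9.61 to 10.4 CPM with dexamethasone and 12.3 to 13.6 CPM in control, most of it Cd14 (7.65 and 7.27 CPM), which did not pass. Cd53, a leukocyte tetraspanin, averaged 0.127 ± 0.0477 CPM with dexamethasone and 1.40 ± 0.205 CPM in control (SD, n = 3 each), and likewise passed the filter only through control. Cd68, Itgax and Lyz2 fell (log2 -1.25, -1.31 and -1.76), on 60, 41 and 16 counts in all with dexamethasone and 143, 102 and 55 in control. Itgax and Lyz2 reached the filter's cutoff in 2 and 1 dexamethasone libraries, and in all 3 control libraries. The part of antigen-presenting and blood cells in the change of Cd74, Ciita or the RT1 class II genes was not tested, and in bulk RNA fewer cells of a type and less RNA per cell cannot be told apart.

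Most of the genes share a stretch of chromosome 20 from RT1-CE10 (start 154074) to Tapbp (end 5476193), where 36 of the 42 genes lie. Of 298 other genes listed there, 132 were tested, of which 34 rose and 44 fell. The other 54 missed the threshold, and the median over the 132 was log2 -0.02. Most other genes of the stretch did not rise, and neither did most of all tested genes, of which 32.3% rose and 31.7% fell.

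**Figure D4:**
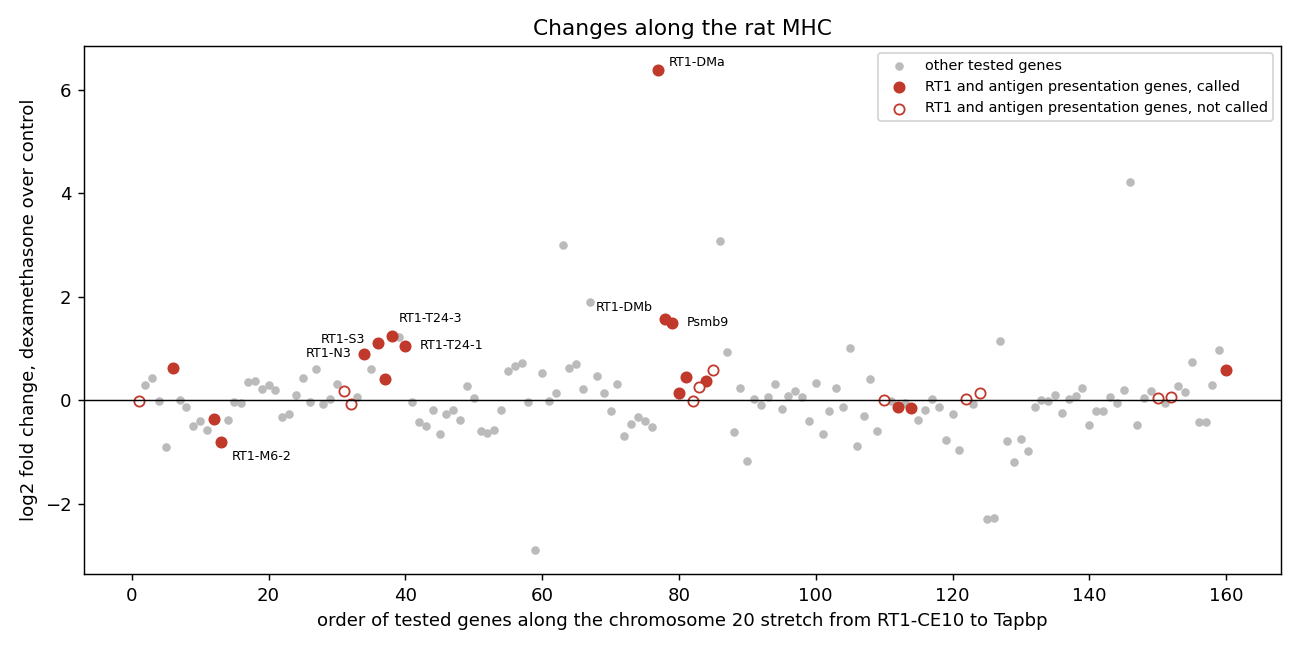
Log2 fold change, dexamethasone over control, of every tested gene from RT1-CE10 to Tapbp, in order along chromosome 20 (not to scale). Grey points are the 132 other genes, red points the RT1 and antigen presentation genes called at an adjusted p below 0.05, and open red circles those not called. The 5 called RT1-N, RT1-S and RT1-T24 genes lie together above 0 on the left, with RT1-N2 (0.19) and RT1-S2 (-0.06) beside them, and RT1-DMa, RT1-DMb and Psmb9 stand above 0 near the middle.

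Other genes of the pathway were taken from 8 lists, with 57 genes in the table and 50 tested. Of these, 20 rose, 16 fell and 14 were not called. That is 72% called, against 64.0% of all tested genes (32.3% higher and 31.7% lower). The rises include Socs1 and the falls Cd40, which each passed the filter through 1 group only. The median of the 50 was log2 0.06. Against a fold of 1.5, 10 passed, Cd40 among them, which is 20% of the 50 and the same share as over all tested genes. Of 6 genes of peptide loading and class I assembly, Calr, the chaperone calreticulin, and Pdia3, its oxidoreductase partner, rose (log2 0.36 and 0.33). Hspa5, the general chaperone BiP, and Sec61a1, a translocon subunit, fell (-0.82 and -0.20), while Canx and Tapbpl did not pass (adjusted p = 0.373 and 0.355). Of 7 proteasome partners, Psmb7 and Psme2, a subunit of the PA28 activator, rose (0.23 and 0.13) and 5 did not pass. Of 7 peptidases, 2 rose and 4 fell. Thop1, which degrades cytosolic peptides, averaged 46.8 ± 1.96 CPM with dexamethasone and 23.6 ± 0.457 CPM in control (SD, n = 3 each; log2 0.99), and Nrdc and Tpp2 fell (-0.29 and -0.25). Npepps, a cytosolic aminopeptidase, rose by log2 0.08 (adjusted p = 0.0254), a call lost without dexamethasone replicate 3 (0.097), control replicate 1 (0.0538) or control replicate 2 (0.0896), and Lnpep did not pass (0.272).

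Endosomal and regulatory genes were likewise mixed. Over all tested genes, 32.3% rose and 31.7% fell. Of 7 tested genes of class II processing, 3 rose and 3 fell. Ctsh, the protease cathepsin H, averaged 133 ± 3.13 CPM with dexamethasone and 69.2 ± 2.09 CPM in control (SD, n = 3 each), and Ctsl rose by log2 0.33. Marchf8, a ubiquitin ligase that takes class II molecules off the surface, fell (log2 -0.46). Lgmn, the protease legumain, fell (log2 -0.10, adjusted p = 0.00665), a call lost with library size alone (0.0931) and without dexamethasone replicate 3 (0.0551) or control replicate 3 (0.0644). Ifi30, a lysosomal thiol reductase, did not pass (adjusted p = 0.0535). Of 10 tested transcription factors of MHC genes, 3 rose, 5 fell and 2 did not pass. Rfxap, a subunit of the RFX complex on MHC promoters, rose (log2 0.68), while its partner Rfx5 and the NF-Y subunit Nfyc fell (-0.42 and -0.45). Rfxank and Irf1 did not pass (adjusted p = 0.467 and 0.38). At a coefficient of variation of 0.2, Calr, Pdia3, Sec61a1, Psmb7, Psme2, Nrdc, Tpp2, Npepps, Ctsl, Lgmn, Marchf8, Rfx5 and Nfyc were no longer called (adjusted p from 0.159 to 0.872). Scaled by library size alone, Canx and Ifi30 were called higher (0.0138 and 0.0301).

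Of 5 tested genes of interferon gamma signalling, 4 rose, 0 fell and 1 did not pass, against 32.3% of all tested genes called higher. The 4 include Socs1, which passed the filter through 1 group only and so had to differ. Only 1 of the 5, Jak2, passed against a fold of 1.5, which 20% of all tested genes passed. Jak2, a kinase of the receptor, averaged 402 ± 4.09 CPM with dexamethasone and 136 ± 5.25 CPM in control (SD, n = 3 each; log2 1.57, adjusted p = 1.0e-37), while Jak1 did not pass (adjusted p = 0.0833). Socs1, a feedback inhibitor, had 48 counts with dexamethasone and 18 in control. It passed the filter only through the dexamethasone libraries, so its test gives no support. Its call was also lost without dexamethasone replicate 2 (adjusted p = 0.0973) or control replicate 3 (0.0774). Ifng, the cytokine itself, had 1 count with dexamethasone and 2 in control.

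Class I-like genes outside the MHC gave 4 rises and 1 fall among 5 tested, against 32.3% higher and 31.7% lower over all tested genes. Cd1d1, which presents lipids, averaged 2.98 ± 0.38 CPM with dexamethasone and 0.857 ± 0.241 CPM in control (SD, n = 3 each; log2 1.79), and Hfe, a regulator of iron uptake, rose by log2 0.92. Procr, the receptor of protein C, fell (log2 -1.23). Of 3 tested genes of costimulation, Cd40, a receptor, was called lower, with 6 counts with dexamethasone and 103 in control. Cd40 passed the filter only through the control libraries, so its test gives no support and the counts are a description. The ratio of its summed counts, control over dexamethasone, was 17.2 (exact 95% binomial interval 5.61 to 86.8, counting error only). Cd80 and Cd274, the inhibitory ligand PD-L1, did not pass (adjusted p = 0.671 and 0.63), and Cd86 and Pdcd1lg2 had 0 counts in all libraries.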

How the data were processed

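The deposited values were raw read counts per gene for 6 libraries in a single table, which also gives each gene's exons, strand and length, per the file headers. For the alignment, the counter, strandedness and multiply mapped reads, the method is not given in the sources used. The submitters' processing notes list the mouse build mm10, whereas all 42 symbols, with their chromosomes, were found in a rat gene table (assembly GRCr8), so coordinates are those of the deposited table, in a build not given. MHC genes differ between rat strains, and reads of another haplotype may map to other RT1 genes.

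Of 30211 genes, 14111 passed filterByExpr. The robust quasi-likelihood test of edgeR 4.0.16, in R 4.3.3, was run on the counts after TMM scaling, and genes with a Benjamini-Hochberg adjusted p below 0.05 were called. Levels are TMM-scaled CPM, also per kilobase of the table's exon length. Standard errors come from log2 CPM (prior count 2). RT1 symbols starting with B, D or H were taken as class II. Subunit ratios were tested by exact permutation. Depth was 34835072 to 41676315 counts, and 70.3% of values from 1 to 20 were even, so the floor was 6 counts (3 read pairs; 0.142 to 0.17 CPM) and intervals were computed on read pairs. Neither floors nor intervals cover more than counting error.

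Since nothing in the labels ties replicates to separate cultures or rats, the p-values reflect the spread among these libraries, which may be technical. DESeq2 1.42.0, limma-voom (limma 3.58.1), other scalings, no filter, left-out libraries, a replicate block, a coefficient of variation of 0.2 and a fold of 1.5 were tried. All tested members are named, with up to 2 called genes per direction of each pathway list by size of change, and uncalled genes where a list has 2 or fewer. A gene of these lists is not reported here by name. Members and lists were chosen with earlier results of these data known. The fits were tested on simulated data.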

Additional observations from a re-analysis of the deposited data

How the results depend on the processing

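The number of called genes among the 34 tested (23; 16 up, 7 down) fell to 13 (10 up, 3 down) with the coefficient of variation set to 0.2 and to 10 (8 up, 2 down) against a fold of 1.5, and without 1 library it ranged from 20 to 23 (14 to 16 up, 5 to 7 down). It was 23 with DESeq2 size factors, without the filter and with limma-voom, 25 with library size alone and 21 with the DESeq2 test. Same-numbered libraries did not deviate together (correlations of deviations 0.00264, -0.00784 and 0.0203). Such values cannot show whether they came from the same culture or rat. With the replicate block 23 genes were called, 16 up and 7 down. Summed RT1 class I and summed RT1 class II were at log2 0.0485 and 0.82, and the subunit ratios were unchanged in direction (0.49, 1.46 and 0.44). Summed RT1 class I (log2 0.0485) was called with library size alone (0.0863) and with no exon base shared among class I genes (0.0968), which left out RT1-CE4 and RT1-M6-2, both called lower. It ranged from 0.0321 to 0.0716 without 1 library, and the cause was not tested. Summed RT1 class II (log2 0.82) includes RT1-DMa, which had to differ. It was not called without RT1-DMa and RT1-DMb (0.29), which held most of its extra counts. Signs changed only in uncalled genes: with library size alone for RT1-CE10 (0.0325), Tap2 (0.0317) and RT1-CE1 (0.0341), without the filter for RT1-CE10 (0.000478) and RT1-CE1 (0.00201), and without 1 library, where the ranges were -0.0733 to 0.0431 for RT1-CE10, -0.037 to 0.0469 for RT1-CE1, -0.0347 to 0.0942 for RT1-CE5, -0.0334 to 0.0366 for Tap2, -0.0596 to 0.38 for RT1-N2, -0.46 to 0.61 for RT1-S2, -0.10 to 0.49 for Cd80, -0.10 to 1.18 for Spi1 and -0.56 to 0.20 for Ptprc. Depth limits the class II genes and Cd74.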
